A study of Mus musculus with 8 samples.

Results

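Whole inner ear RNA of mice at postnatal day 14 was sequenced in 8 libraries, 4 from wild-type mice and 4 from littermates heterozygous for a Thra frameshift that changes how thyroid hormone receptor α1 works. The sample titles take 1 of 2 forms, holding either 2 numbers or 1 number, and the 4 libraries with 2 numbers (wild-type WT22-23 and WT31-33, heterozygous mutant Mut25-26 and Mut34-35) were compared with the 4 of 8 that hold 1 (wild-type WT19 and WT38, heterozygous mutant Mut21 and Mut39). Each title form thus covers 2 wild-type and 2 mutant libraries, and genotype was kept as a covariate. The labels say neither what the numbers stand for nor whether a library is 1 animal, 1 ear or a pool. The p-values therefore reflect only how these samples vary, which may be technical, and title form cannot be told apart from any other property that separates the same 4 libraries from the other 4. The question was how nuclear, splicing, mitochondrial and axonal transcripts differ by title form once all X- and Y-linked genes, and genes at 0 in some library and at 10 or more counts in all others, are left out.

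Most messenger RNA leaves the nucleus after splicing, whereas some long non-coding RNA stays there, among them Neat1, the scaffold of paraspeckles, and Malat1, a component of nuclear speckles. Speckles store SR proteins, the serine- and arginine-rich splicing factors that CLK kinases phosphorylate, and several genes of this machinery make another transcript with a retained intron that is held in the nucleus. The respiratory chain is encoded by both nuclear genes, whose messengers are translated in the cytoplasm, and the mitochondrial genome, whose messengers stay inside mitochondria. In the inner ear, axon and synapse transcripts come largely from spiral and vestibular ganglion neurons, whose large axons are rich in neurofilaments and are wrapped by Schwann cells.

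In libraries with 2-number titles, 14 of 24 tested nuclear long non-coding RNA, 24 of 38 speckle protein genes, 5 of 12 SR protein genes and 5 of 9 genes for their kinases were higher. Lower were 27 of 80 nuclear-encoded respiratory chain and ATP synthase genes, 8 of 16 tricarboxylic acid cycle genes, 6 of 30 neurofilament and axon cytoskeleton genes and 10 of 32 presynaptic genes. Mitochondrially encoded protein genes did not pass the test. The lists were written with earlier results of these data known, so their counts beside those of all genes are a description and not a test. Of 19519 genes tested, 2278 (11.7%) passed an adjusted p under 0.05 in edgeR's quasi-likelihood test, 1565 of them higher (8.02%) and 713 lower (3.65%). At an unadjusted p under 0.05 there were 3218 and 2453. The median log2 fold change (2-number minus 1-number titles) was 0.58 among called higher genes and -0.32 among called lower ones, against -0.0092 over all genes tested. More than 2-fold differences were found for 285 called higher and 14 called lower genes. The title forms did not overlap in 2102 of the called genes, and 20.1% of all tested genes had no overlap (11.9% higher and 8.18% lower in 2-number libraries).

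These counts depended on single libraries. Without WT19, WT38, Mut21, Mut39, WT22-23, WT31-33, Mut25-26 or Mut34-35, respectively, 808, 643, 443, 921, 1406, 1079, 789 and 987 genes were higher and 116, 158, 75, 206, 683, 433, 189 and 308 were lower. With library totals alone in place of trimmed-mean scaling, 1880 were higher and 365 lower. Every one of the 2278 genes kept its direction in all of these fits (2274 were tested without Mut25-26). Of 130 called genes with the smallest p-values in their list or direction, or chosen for their role, 67 kept their call in all 8 fits without 1 library, 28 in 4 to 7 of them and 35 in fewer.

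**Figure D1:**
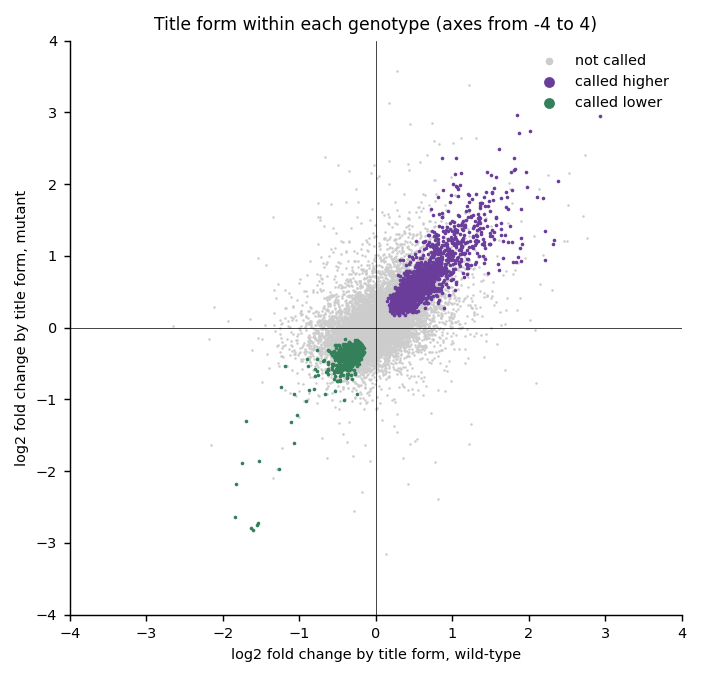
Log2 fold change by title form in wild-type (x axis) and mutant libraries (y axis), 1 point per tested gene, with called higher genes in purple and called lower genes in green. All called genes within the axes lie in the lower left or upper right of the plot, and 37 genes, 5 of them called, lie outside the axes of -4 to 4.

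For most genes the difference by title form went the same way in both genotypes. Of genes with an unadjusted p under 0.05 within wild-type, 95.5% had the same sign in mutant libraries, against 76.9% of all tested genes. These 2 estimates share no library. The genotype by title form interaction was called for 0 genes by edgeR (228 at an unadjusted p under 0.05) and 0 by DESeq2 (119), with 2 libraries in each group. Within wild-type or mutant alone, 2 against 2 libraries, 0 genes passed in edgeR, with 2877 and 3169 at an unadjusted p under 0.05. In the plot of both genotypes the called genes have the same sign on both axes, which their choice from the pooled libraries partly fixes.

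The libraries held between 18930841 and 23064578 counts. A floor of 3 counts thus lay at 0.130 to 0.158 counts per 1000000 of the library total. CPM below are counts per 1000000 of the normalized library size. The paired libraries of a group differed by a median absolute log2 difference per gene of 0.153 and 0.163 for 1-number titles (wild-type and mutant) and 0.236 and 0.197 for 2-number titles. Hair cell and strial markers were present in every library, with summed levels of 733 to 799 CPM and 1634 to 1792 CPM in 1-number libraries and 719 to 844 CPM and 1346 to 1687 CPM in 2-number libraries. Thra stood at 114, 98.03, 136 and 131 CPM in the libraries WT19, WT38, Mut21 and Mut39 and 114, 102, 113 and 125 CPM in WT22-23, WT31-33, Mut25-26 and Mut34-35, and this order is kept for all values below. It was not called by title form (edgeR adjusted p = 0.595), and counts per gene do not show a frameshift. Counts of Eif2s3y, on the Y chromosome, were 545, 520, 0 and 530 in the 2-number libraries and at most 2 in the others. Those of Xist, the RNA that coats the inactive X chromosome, were 5408, 5656, 5145 and 5288 against 3622, 6087, 10682 and 6228. WT22-23, WT31-33 and Mut34-35 thus held both male and female RNA, whereas Mut25-26 and the 1-number libraries showed Xist with at most 2 Eif2s3y counts. Title form was therefore not balanced for sex. With the Y-linked share of counts as a covariate, chosen after the data had been seen, 567 genes were higher and 92 lower, and the part of Y-linked RNA in the results below was not tested further.

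Nuclear long non-coding RNA was mostly higher in 2-number libraries. Of 30 listed genes 24 were tested, and 14 were higher (58.3%, against 8.02% of all genes) and 1, Peg13, was lower. Their median log2 fold change was 0.79 and 23 of 24 were above 0. Mir124a-1hg, the host transcript of the neuronal microRNA miR-124 (chr14:64587331-64593961, GRCm38), stood at 7.72, 4.95, 4.11 and 4.96 CPM in the 1-number libraries and 21.3, 23.2, 23.4 and 18.6 CPM in the 2-number libraries. Every 2-number library was far above every 1-number library (5.43 ± 1.57 against 21.6 ± 2.25 CPM, SD over 4 libraries each, log2 fold change 2.01 ± 0.17 SE, adjusted p = 0.0021 in edgeR). Meg3, a maternally expressed RNA of the imprinted Dlk1-Dio3 region (chr12:109541001-109571726), stood at 227, 127, 132 and 159 CPM against 505, 534, 578 and 544 CPM. The groups were well apart here too, with WT19 the highest of the 1-number libraries (log2 fold change 1.75 ± 0.18 SE, adjusted p = 0.00306 in edgeR). Mirg, a transcript of the same imprinted region that carries a microRNA cluster, was higher by a log2 fold change of 1.81 (SE 0.23). Rian, which lies between Meg3 and Mirg, was not called and overlapped, at 167, 125, 157 and 152 CPM against 154, 229, 194 and 209.7 CPM (log2 fold change 0.39 ± 0.14 SE, adjusted p = 0.0992 in edgeR).

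Mir99ahg, the host of miR-99a and let-7c (chr16:77236317-77773427), stood at 27.1, 24.9, 23.97 and 33.6 CPM against 81.8, 70.3, 78.004 and 67.4 CPM. Its groups did not overlap (log2 fold change 1.44 ± 0.12 SE, adjusted p = 0.0021 in edgeR). Neat1, the paraspeckle scaffold (chr19:5824708-5845478), stood at 146, 131, 85.7 and 109 CPM against 272, 279, 211 and 196 CPM. In both title forms the wild-type libraries held more Neat1 than the mutant ones, and the 2-number libraries were higher within each genotype (log2 fold change 1.03 ± 0.0878 SE, adjusted p = 0.00211 in edgeR). Miat, Snhg11, Kcnq1ot1 and Airn, the last 2 of them antisense RNA of imprinted genes, were higher by log2 fold changes of 1.56, 1.55, 1.10 and 1.08. Dleu2, the host of miR-16-1, was higher by 0.78. Airn and Kcnq1ot1 lie across genes of the other strand, and because it is not known whether counting used strand, reads of such partners cannot be told apart.

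Malat1, by contrast, overlapped between title forms, at 421, 357, 308 and 473 CPM against 448, 449, 501 and 456 CPM (log2 fold change 0.25 ± 0.13 SE, adjusted p = 0.237 in edgeR). Mut39 held more Malat1 than 3 of the 2-number libraries. Peg13, an imprinted non-coding RNA lying within an intron of another gene, fell from 116, 109, 119.5 and 121 CPM to 99.9, 81.4, 91.5 and 74.8 CPM (log2 fold change -0.42 ± 0.095 SE, adjusted p = 0.0269 in edgeR). The 24 tested RNA together took 0.144 ± 0.0159% of counts in 1-number and 0.256 ± 0.0121% in 2-number libraries (SD, n = 4 each). The groups did not overlap, which gives the smallest two-sided exact permutation p possible, 0.02857 (0.143 adjusted over 5 shares).

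**Figure D2:**
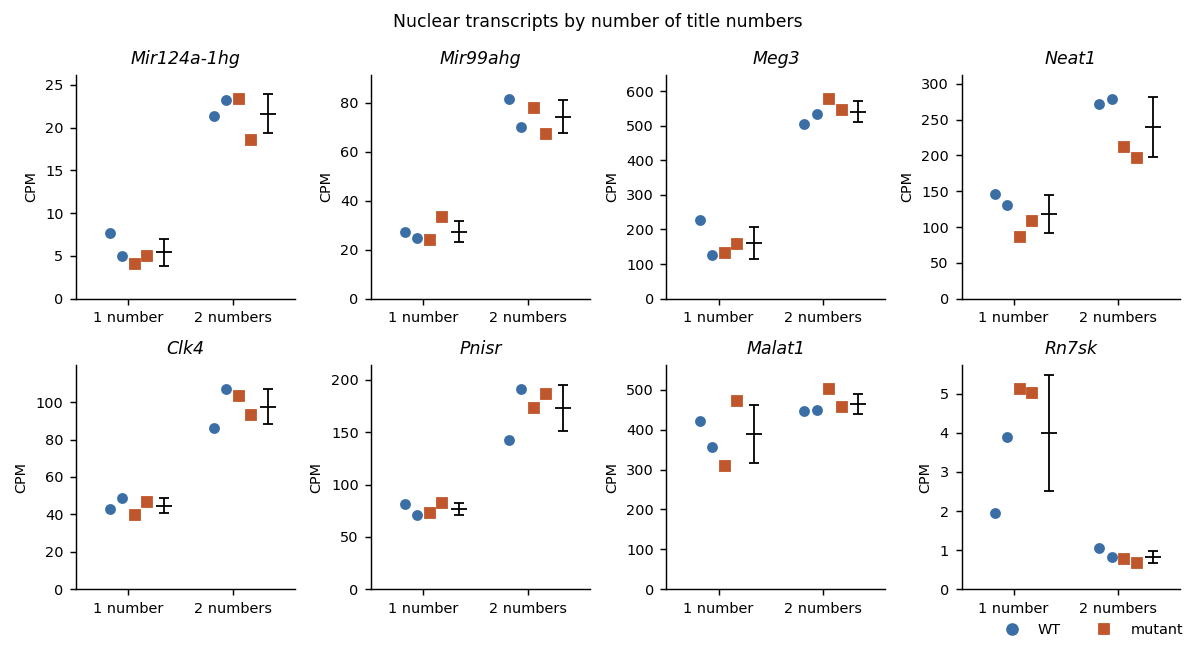
CPM of 8 genes of the nuclear and splicing lists in each library by title form (blue circles, wild-type, orange squares, mutant), with the mean and SD of the 4 libraries at the right of each group. The title forms do not overlap for any gene shown but Malat1, and Rn7sk runs the other way.

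Several of the highest transcripts are hosts of microRNA hairpins, so the mature sequences within called hosts are shown. Hosts were found by coordinates on the same strand, a set built after the results were known, from RefSeq entries on GRCm38.p6. The counts measure the host transcript and not the mature microRNA. Of 33 tested non-coding hosts, 18 were higher and 0 lower by edgeR (24 higher and 2 lower at an unadjusted p under 0.05, 21 and 1 by DESeq2, 29 with a log2 fold change above 0, median 0.98). Counts in such brackets below are in the same order, higher before lower. The genes compared, with no hairpin in those entries, were lincRNA, antisense, processed transcript, bidirectional promoter and sense intronic genes. Of these 1258 tested, 208 were higher and 24 lower (median 0.26), and of 488 protein-coding hosts 49 were higher and 17 lower (median 0.013). The non-coding hosts were not held to those types and include the pseudogene Gm4149. The called hosts A430106G13Rik and Gm4258 overlap on the same strand and share the Mir181b-1 hairpin. Members of the let-7 family, which share a seed (bases 2 to 8, in capitals, the stretch that pairs with targets), lie in the host 6720427I07Rik (chr13:48532905-48546500, GRCm38) and in Mir99ahg.
mmu-let-7a-5p: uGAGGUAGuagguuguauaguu
mmu-let-7d-5p: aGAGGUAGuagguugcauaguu
mmu-let-7f-5p: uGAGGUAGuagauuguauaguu
mmu-let-7c-5p: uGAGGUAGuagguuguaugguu
The host 6720427I07Rik stood at 2.17, 2.80, 2.49 and 2.69 CPM against 5.33, 7.42, 6.83 and 7.44 CPM (log2 fold change 1.41, SE 0.15). Its neighbouring hairpins and that of Mir99ahg thus sit in transcripts that were all higher in 2-number libraries. Mir17hg (chr14:115042879-115046727), which carries the miR-17 to miR-92a cluster, holds 2 pairs of microRNAs with a common seed.
mmu-miR-17-5p: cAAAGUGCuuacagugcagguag
mmu-miR-20a-5p: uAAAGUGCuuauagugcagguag
mmu-miR-19a-3p: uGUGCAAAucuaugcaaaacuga
mmu-miR-19b-3p: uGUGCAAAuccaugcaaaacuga
Mir17hg stood at 2.22, 2.47, 1.36 and 2.06 CPM against 5.49, 5.96, 5.23 and 3.82 CPM, without overlap (log2 fold change 1.35 ± 0.18 SE, adjusted p = 0.00523 in edgeR). Other called hosts carry miR-29b and miR-29c (A330023F24Rik, chr1:194976375-195037904, log2 fold change 1.70) and miR-16 (Dleu2), whose seeds differ from those above.
mmu-miR-29b-3p: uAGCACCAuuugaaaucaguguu
mmu-miR-29c-3p: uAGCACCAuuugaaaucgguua
mmu-miR-16-5p: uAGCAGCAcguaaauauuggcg

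Short structured nuclear RNA was poorly covered. Rn7sk, the 7SK RNA that holds back a transcription elongation factor (chr9:78175303-78175633), fell from 1.94, 3.90, 5.12 and 5.01 CPM to 1.05, 0.830, 0.780 and 0.676 CPM. Its lowest 1-number library, WT19, was still above every 2-number library (log2 fold change -2.22 ± 0.31 SE, adjusted p = 0.00648 in edgeR). Of the 25 listed genes of this class 18 were below the filter, and the 6 tested besides Rn7sk had log2 fold changes above 0. Over all 7 tested, Rn7sk included, 0 were higher and 1 lower by edgeR (4 and 1 at an unadjusted p under 0.05, 0 and 1 by DESeq2). The signal recognition particle RNA genes Rn7s1 and Rn7s2, near-identical copies that share reads, both stood at a log2 fold change of 0.65 (edgeR adjusted p = 0.1). Of 131 small Cajal body and nucleolar RNA genes only 7 were tested, since 62 were left out by the rule on 0 counts or linkage and 62 were below the filter. Snord82, which lies in the Ncl gene, was the only one called (7.86, 6.87, 8.09 and 6.43 against 5.59, 5.08, 5.04 and 5.51 CPM, log2 fold change -0.46). Its counts cannot be told apart from reads of the host, and its call was kept in 0 of the 8 fits without 1 library.

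Host genes of small nucleolar RNA went the other way from Snord82. Of 15 tested 7 were higher and 0 lower by edgeR (9 and 0 at an unadjusted p under 0.05, 8 and 0 by DESeq2), with a median log2 fold change of 0.34. Gas5 (chr1:161034422-161038539), the host of many box C/D small nucleolar RNA, stood at 64.5, 62.1, 64.1 and 63.3 CPM against 95.7, 85.7, 93.8 and 102 CPM. Its 1-number libraries were nearly equal and all lay below the 2-number libraries (log2 fold change 0.57 ± 0.0631 SE, adjusted p = 0.00306 in edgeR). Snhg17 and Snhg20 were higher by 1.19 (SE 0.14) and 0.98 (SE 0.0911).

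Genes for speckle proteins had the most called members of any list. Of 38 tested 24 were higher and 0 lower by edgeR (27 and 1 at an unadjusted p under 0.05, 25 and 0 by DESeq2), and the median log2 fold change was 0.39 (0.39 within wild-type and 0.38 within mutant libraries). Pnisr, an SR-related protein gene (chr4:21847583-21876475), stood at 81.1, 70.8, 72.4 and 82.9 CPM against 143, 191, 173 and 187 CPM. WT22-23 was the lowest of the 2-number libraries and was still well above the 1-number libraries (log2 fold change 1.17 ± 0.10 SE, adjusted p = 0.00215 in edgeR). Ccnl1, a cyclin of speckles, stood at 39.9, 41.3, 34.99 and 38.5 CPM against 63.05, 68.6, 62.9 and 64.1 CPM (log2 fold change 0.74 ± 0.0628 SE, adjusted p = 0.0021 in edgeR). Both title forms were narrow and far apart for Ccnl1. The speckle scaffold genes Srrm2 and Son were higher by 0.65 (SE 0.10) and 0.50 (SE 0.073), Pnn and Rbm33 by 0.75 and 0.57, and Luc7l3 and Nktr by 0.61 and 0.80. The summed level of the 38 genes was 3460.3 to 3809 CPM in 1-number and 4595 to 5190.2 CPM in 2-number libraries.

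Paraspeckle and nuclear matrix genes followed with 8 of 17 higher and 0 lower by edgeR (9 and 0 at an unadjusted p under 0.05, 8 and 0 by DESeq2). Safb2, a nuclear matrix protein, stood at 54.1, 51.3, 43.03 and 47.8 CPM against 77.6, 75.98, 74.8 and 76.9 CPM (log2 fold change 0.64 ± 0.067 SE, adjusted p = 0.00257 in edgeR). The RNA-binding protein genes Ewsr1 and Taf15 were higher, by 0.50 and 0.51. Their 1-number and 2-number libraries did not overlap. Chromatin regulators were closer to the background, with 6 of 43 higher, among them the histone methyltransferase Kmt2d (0.48), the methylcytosine dioxygenase Tet2 (0.74) and the remodeller Chd7 (0.37). Of 28 nuclear pore and lamina genes, the messenger export factor Nxf1 (0.49) and the protein exporter Xpo1 (0.21) were higher, Nup50 (-0.30) was lower, and the median was -0.02. These shares, 7.14% higher and 3.57% lower, were near the 8.02% and 3.65% of all tested genes. Over all 179 tested genes of the nuclear lists 61 were higher (34.1%) and 4 lower, with a median of 0.21. Without Mut21 the higher count was 38. The calls of Nup50 and Xpo1 were kept in 1 and 0 of the 8 fits without 1 library.

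Splicing genes divided by role. Of 9 SR protein kinase genes 5 were higher and 0 lower by edgeR (7 and 0 at an unadjusted p under 0.05, 6 and 0 by DESeq2). Clk4 (chr11:51261730-51281766) stood at 43.1, 48.9, 39.8 and 46.7 CPM against 86.4, 107, 104 and 93.3 CPM, and the lowest 2-number library was above every 1-number library by a wide margin (log2 fold change 1.13 ± 0.0946 SE, adjusted p = 0.0021 in edgeR). It overlaps an annotated gene of the opposite strand. Clk1 stood at 101, 116, 76.5 and 109 CPM against 198, 218, 215 and 200.1 CPM (log2 fold change 1.05 ± 0.12 SE, adjusted p = 0.00308 in edgeR). Here too the title forms were fully apart, with Mut21 the lowest. Clk2, Prpf4b and Srpk1 were higher by smaller log2 fold changes of 0.45, 0.40 and 0.28.

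Of 12 SR protein genes 5 were higher and 0 lower by edgeR (8 and 0 at an unadjusted p under 0.05, 6 and 0 by DESeq2). Srsf5 stood at 163, 137, 173 and 135 CPM against 242, 278, 242 and 261 CPM (log2 fold change 0.75 ± 0.10 SE, adjusted p = 0.00561 in edgeR), and Srsf11 at 105, 106, 101 and 102 CPM against 136, 174, 141 and 180.2 CPM (0.61, SE 0.10). Neither overlapped between title forms, and in Srsf11 the replicate 2 libraries of both genotypes, WT31-33 and Mut34-35, were the highest. Srsf6, Srsf7 and Srsf1 were higher by 0.41, 0.40 and 0.27. Among regulators of alternative splicing 6 of 39 were higher and 0 lower by edgeR (14 and 2 at an unadjusted p under 0.05, 8 and 1 by DESeq2), led by Rbm4b (0.62), the neuronal polypyrimidine tract binder Ptbp2 (0.66) and Tia1 (0.89). Of 25 hnRNP genes 5 were higher, among them Hnrnph3 (0.70), Hnrnph1 (0.58), Hnrnpdl (0.55) and Hnrnpa2b1 (0.29), and Pcbp1, Hnrnpa0 and Hnrnpab were lower (-0.30, -0.28 and -0.25). Of 16 genes of the exon junction complex and nonsense-mediated decay, the messenger export gene Thoc1 (0.50) and the decay kinase Smg1 (0.36) were higher.

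The spliceosome core did not share this direction. Of 71 genes 8 were higher and 9 lower, 22 had a log2 fold change above 0, and the median was -0.07. Higher members included the U1 particle gene Snrnp70, at 102, 101, 90.2 and 92.3 CPM against 152, 156, 139 and 163 CPM (log2 fold change 0.66 ± 0.0679 SE, adjusted p = 0.0025 in edgeR). Snrpc, another protein of the same U1 particle, was lower, at 35.7, 36.02, 35.8 and 33.8 CPM against 28.6, 27.5, 24.7 and 29.4 CPM (log2 fold change -0.36 ± 0.0725 SE, adjusted p = 0.0198 in edgeR). Both genes were without overlap, in opposite directions. Snrnp48 of the minor spliceosome (0.77), Prpf39 (0.49) and Sf3b1 (0.23) were also higher, and the scaffold Prpf8 (-0.26), Prpf19 (-0.28), Sf3b4 (-0.32) and the Sm protein genes Snrpd1 (-0.31) and Snrpb (-0.26) were lower. Over all 172 tested splicing genes 31 were higher (18.0%) and 12 lower (6.98%), with a median of 0.01. The higher count was 19 without WT19, WT38 or Mut25-26 and 12 without Mut21. In the 8 fits without 1 library Clk1, Clk4, Srsf5 and Snrnp70 were called every time, Snrpc 4 times, Srsf1 and Srpk1 2 times and Hnrnpa2b1 1 time.

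**Figure D3:**
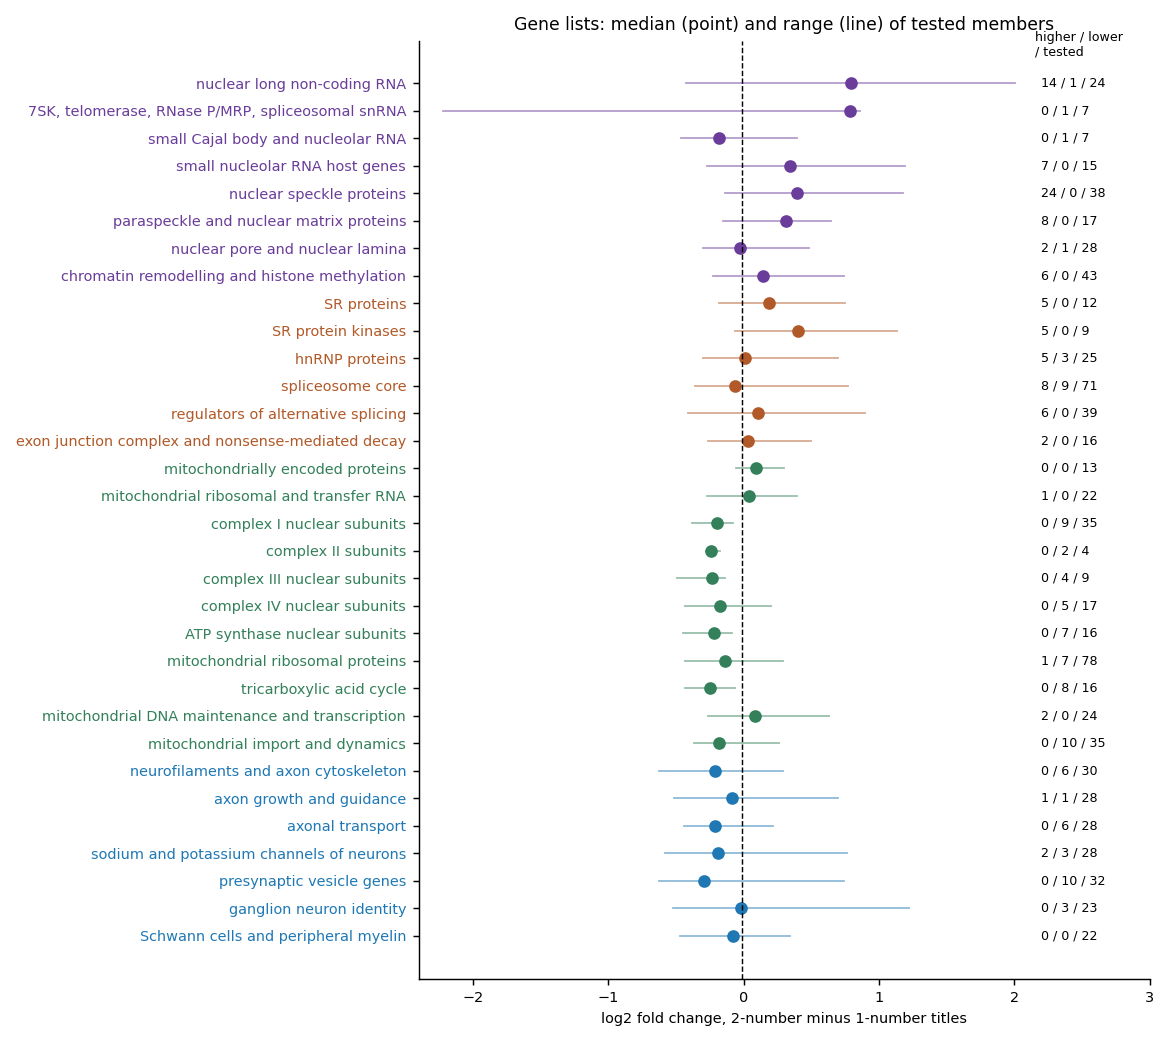
Log2 fold change by title form in each nuclear (purple), splicing (brown), mitochondrial (green) and axonal (blue) gene list, with the median as a point, the range of tested members as a line and the counts of higher, lower and tested members at the right. Medians are highest for nuclear long non-coding RNA (0.79) and lowest for presynaptic vesicle genes (-0.29), and the dashed line is the median of all tested genes (-0.0092).

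Many nuclear-encoded mitochondrial genes were lower. Of 80 tested subunit genes of the respiratory chain and ATP synthase 27 were lower (33.8%, against 3.65% of all genes) and 0 higher by edgeR (0 and 58 at an unadjusted p under 0.05, 0 and 33 by DESeq2), 2 had a log2 fold change above 0, and the median was -0.21. All 5 complexes had called members, with 9 of 35 for complex I, 2 of 4 for complex II, 4 of 9 for complex III, 5 of 17 for complex IV and 7 of 16 for ATP synthase. Uqcrc1, a core subunit of complex III (chr9:108936633-108949623), stood at 156, 152, 157 and 140.04 CPM against 118, 108, 99.2 and 106 CPM. The 1-number libraries were all above the 2-number libraries (log2 fold change -0.49 ± 0.0673 SE, adjusted p = 0.00581 in edgeR). Atp5g3, a membrane subunit of ATP synthase (chr2:73908447-73911326), stood at 225, 214, 223 and 214 CPM against 159, 173, 149 and 161 CPM (log2 fold change -0.45 ± 0.0645 SE, adjusted p = 0.00669 in edgeR). Its 2 forms were narrow and did not overlap. Of complex I, Ndufb8 (-0.39), Ndufs5 (-0.34) and Ndufa10 (-0.30) were lower, of complex II the iron-sulfur subunit Sdhb (-0.28), and of complex IV Cox5a (-0.38) and Cox4i1 (-0.31).

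Enzymes of the tricarboxylic acid cycle were lower in 8 of 16 genes and higher in 0 by edgeR (0 and 11 at an unadjusted p under 0.05, 0 and 10 by DESeq2), and all 16 had negative log2 fold changes. Ogdh, of the 2-oxoglutarate dehydrogenase complex (chr11:6291633-6356642), stood at 320.2, 325, 305 and 294 CPM against 251, 236, 219 and 213 CPM (log2 fold change -0.44 ± 0.0591 SE, adjusted p = 0.00561 in edgeR). Mdh2, Dlat and Idh3a were lower by similar amounts (-0.37, -0.38 and -0.32). Of 35 genes for import, carriers and dynamics 10 were lower and 0 higher by edgeR (3 and 22 at an unadjusted p under 0.05, 0 and 12 by DESeq2), among them the outer membrane channel Vdac1 (-0.31), the chaperone Hspd1 (-0.29) and the fusion protein Mfn2 (-0.27). Of 78 mitochondrial ribosomal protein genes 7 were lower and 1 higher, with a median of -0.14. Of genes that maintain and transcribe mitochondrial DNA, 0 of 24 were lower and 2 higher by edgeR (7 and 3 at an unadjusted p under 0.05, 4 and 2 by DESeq2). The 2 higher genes were 8.33% of the list, near the 8.02% of all tested genes. The higher genes were the transcription factor Nrf1, at 25.05, 27.6, 23.2 and 23.999 CPM against 38.01, 32.8, 37.01 and 32.5 CPM (log2 fold change 0.49 ± 0.0819 SE, adjusted p = 0.0105 in edgeR), and the polymerase subunit Polg2 (0.63).

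Transcripts of the mitochondrial genome were tested beside the nuclear genes for the same complexes. Of 13 mitochondrially encoded protein genes 0 were called in either direction by edgeR (1 and 0 at an unadjusted p under 0.05, 0 and 0 by DESeq2) and 11 had log2 fold changes above 0, with a median of 0.09. The cytochrome oxidase subunit gene mt-Co1 stood at 17627, 16809, 15402 and 20110.5 CPM against 20593, 19776, 20979 and 17673 CPM (log2 fold change 0.18 ± 0.11 SE, adjusted p = 0.325 in edgeR). Mut21 was lowest and Mut39 was within the 2-number range, so the groups overlapped. mt-Nd1 was nearer to equal, at 7045, 6749.8, 6981 and 8477 CPM against 7265, 8081, 7648 and 7105 CPM (log2 fold change 0.04, SE 0.0987), and its sign differed between genotypes (0.15 in wild-type and -0.07 in mutant libraries). Of 22 mitochondrial ribosomal and transfer RNA genes 1 was called, the histidine transfer RNA gene mt-Th, higher by 0.39 (SE 0.0989, edgeR adjusted p = 0.0385). This share, 4.55%, was below the 8.02% of all tested genes called higher. All mitochondrially encoded genes took 9.58, 9.36, 8.57 and 10.9% of counts in 1-number and 10.7, 11.0, 11.0 and 9.98% in 2-number libraries. The means of 9.59 ± 0.949% and 10.7 ± 0.476% (SD, n = 4 each) differed by an amount that did not pass the test (two-sided exact permutation p = 0.0857, adjusted over 5 shares 0.214, smallest possible 0.02857).

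Over the 268 tested genes of the mitochondrial lists 52 were lower (19.4%) and 4 higher, with a median of -0.15. The lower count fell to 10, 16, 8 and 15 without WT19, WT38, Mut21 or Mut39, and to 14 and 31 without Mut25-26 or Mut34-35. It was 32 with library totals alone. Uqcrc1, Atp5g3, Ndufb8, Ndufs5 and Ogdh were called in all 8 fits without 1 library, Mdh2 in 5, Idh3a in 4, Sdhb, Vdac1, Hspd1 and Mfn2 in 3, Polg2 and mt-Th in 2 and Cox4i1 in 1. Of cytosolic ribosomal protein genes 3 of 77 were lower and 0 higher by edgeR (0 and 23 at an unadjusted p under 0.05, 0 and 13 by DESeq2), 76 log2 fold changes were below 0, and the median was -0.17. The share called lower, 3.90%, was near the 3.65% of all tested genes.

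**Figure D4:**
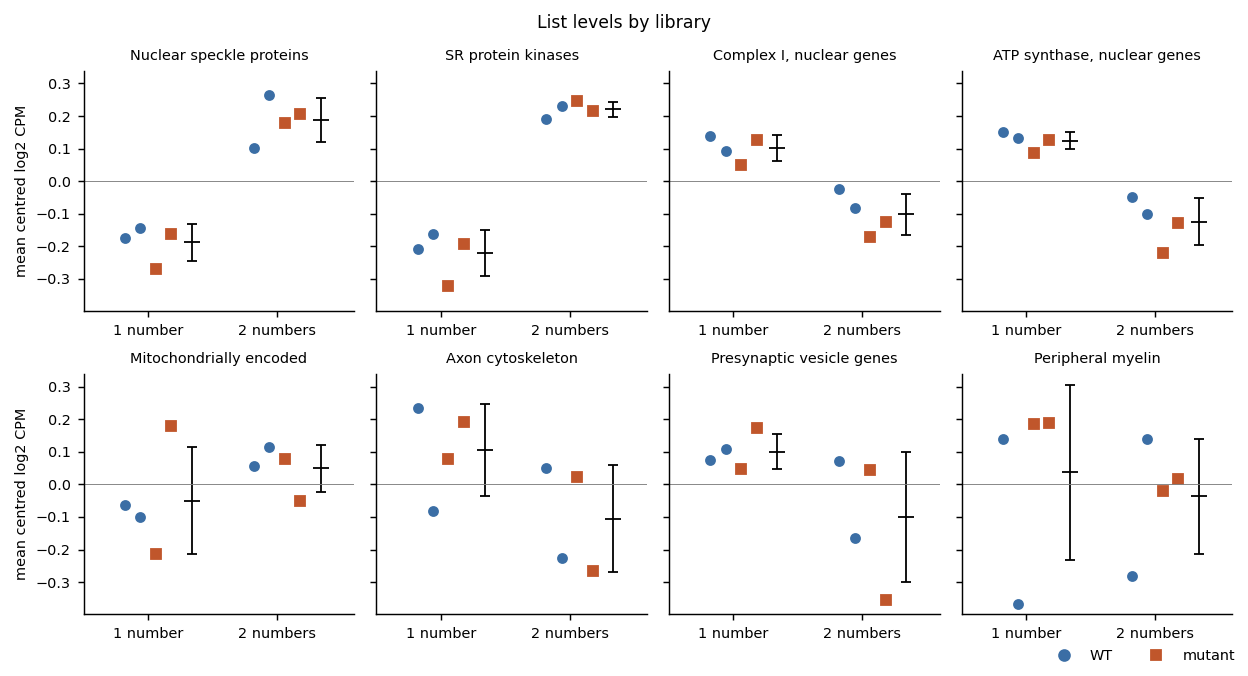
Mean log2 CPM over the tested members of 8 lists, centred per gene, in each library by title form (blue circles, wild-type, orange squares, mutant, mean and SD of 4 libraries at the right). Speckle protein, SR kinase, complex I and ATP synthase levels do not overlap between title forms, whereas the mitochondrially encoded, axon cytoskeleton, presynaptic and peripheral myelin levels do.

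Of the axonal lists, the neurofilament genes were lower together. Nefl (chr14:68083863-68089095), the light chain, stood at 1316, 1246, 1459 and 1343 CPM against 932, 857, 916 and 929 CPM. The highest 2-number library was well under the lowest 1-number library (log2 fold change -0.56 ± 0.0721 SE, adjusted p = 0.0051 in edgeR). The medium and heavy chain genes Nefm and Nefh stood at 2484, 2496, 2785 and 2588 CPM against 1853, 1574, 1735 and 1723 CPM and at 1377, 1542, 1534 and 1512 CPM against 1101, 911, 998 and 915 CPM (log2 fold changes -0.59, SE 0.0807, and -0.60, SE 0.0894). Neither of them overlapped. Nefl and Nefm overlap on opposite strands in the annotation, so some reads may be shared. The internexin gene Ina (-0.62), the neuronal tubulin Tubb3 (-0.50) and the microtubule-associated protein gene Map1a (-0.55) were the other called members, and 0 of 30 were higher by edgeR (0 and 13 at an unadjusted p under 0.05, 0 and 11 by DESeq2). Prph, the peripherin of type II ganglion neurons, varied from 1.74 to 57.8 CPM and overlapped between title forms (log2 fold change 0.07 ± 1.16 SE, adjusted p = 0.977 in edgeR), and its direction changed when single libraries were left out.

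Of 32 presynaptic genes 10 were lower and 0 higher by edgeR (3 and 15 at an unadjusted p under 0.05, 1 and 12 by DESeq2), with a median of -0.29. The mean log2 CPM of the list, centred per gene, was 0.08, 0.11, 0.05 and 0.17 in the 1-number libraries and 0.07, -0.16, 0.04 and -0.35 in the 2-number libraries. Only WT31-33 and Mut34-35, which have neighbouring title numbers, thus lay below the 1-number range by more than 0.1, and the axon cytoskeleton list had its lowest levels in the same libraries (-0.23 and -0.27, against 0.05 in WT22-23 and 0.02 in Mut25-26). Slc17a7, a vesicular glutamate transporter gene, stood at 117, 92.1, 105 and 102 CPM against 70.3, 76.8, 68.6 and 68.3 CPM (log2 fold change -0.55 ± 0.0813 SE, adjusted p = 0.00714 in edgeR). The groups did not overlap. The vesicle fusion genes Rab3a (-0.48) and Syt2 (-0.39) were lower as well. Of 28 axonal transport genes 6 were lower and 0 higher by edgeR (1 and 15 at an unadjusted p under 0.05, 0 and 12 by DESeq2), among them the motor subunit genes Dync1h1 (-0.38), Dctn1 (-0.33) and Klc2 (-0.42).

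Other neuronal genes were mixed. Among 28 neuronal sodium and potassium channel genes Kcnh2 (-0.55), Hcn4 (-0.58) and Scn2b (-0.44) were lower, and Kcnt1 (0.76) and Kcnip4 (0.66) were higher. These were 10.7% lower and 7.14% higher, against 3.65% and 8.02% of all tested genes. Of 28 growth and guidance genes the netrin receptor gene Dcc was higher (7.86, 9.40, 7.92 and 9.23 against 13.96, 14.6, 13.5 and 13.6 CPM, log2 fold change 0.70, SE 0.0979) and Sncb was lower (-0.52). Each was 3.57% of that list, no more than the share of all tested genes called in its direction (8.02% higher and 3.65% lower). The growth cone gene Gap43 (-0.22, edgeR adjusted p = 0.476) and Stmn2 (-0.32, adjusted p = 0.0724) were not called. Of 23 ganglion identity genes Calb2 (-0.37), Shox2 (-0.53) and Tubb3 were lower, 0 were higher by edgeR (2 and 5 at an unadjusted p under 0.05, 0 and 5 by DESeq2), and the median was -0.02. Over the 188 tested axonal genes, counting each gene once, 28 were lower (14.9%) and 3 higher, with a median of -0.16. The 3 neurofilament chain genes, Ina, Slc17a7 and Kcnh2 were called in all 8 fits without 1 library, Rab3a and Kcnip4 in 4, Calb2 in 3, Tubb3, Scn2b, Sncb, Dync1h1 and Dctn1 in 2 and Klc2 in 1.

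Markers of the cells around the axons varied by library. Of 22 Schwann cell and peripheral myelin genes 0 were called by edgeR (0 and 1 at an unadjusted p under 0.05, 0 and 0 by DESeq2), with 6 log2 fold changes above 0 and a median of -0.08. Their summed level was 10019 to 15654 CPM in 1-number and 11589 to 13974 CPM in 2-number libraries. Of 15 oligodendrocyte genes 0 were called by edgeR (2 and 0 at an unadjusted p under 0.05, 1 and 0 by DESeq2). The summed level of these genes was 509.96 to 1148 CPM against 803 to 1185 CPM, with a median log2 fold change of 0.70 within wild-type and -0.10 within mutant libraries. Choroid plexus markers summed to 199 to 2234 CPM against 134 to 258 CPM, with Mut39 the highest at a level above every other library, and 1 of 10, Sostdc1, was lower (-0.71). Neutrophil markers summed to 538 to 1593 CPM against 524 to 2434 CPM, and 17 of 17 had log2 fold changes above 0 with 0 called by edgeR (0 and 0 at an unadjusted p under 0.05, 0 and 0 by DESeq2). The part of these cells in the counts by title form was not tested, and in bulk RNA fewer cells of a type and less RNA per cell cannot be told apart. The lower axonal count was 8, 13, 7 and 8 without WT19, WT38, Mut21 or Mut39 and 13, 14 and 11 without WT31-33, Mut25-26 or Mut34-35. In limma-voom it was 17 with neighbouring title numbers as a block, against 30 without the block.

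Genes of no chosen list were also among the smallest p-values. The 12 smallest of the higher genes, besides those above, included Zcchc7, a cofactor of the nuclear exosome, the nuclear receptor Rora, the poly(A) nuclease adaptor Pan3 and the nuclear matrix anchor Akap8. Zcchc7 (chr4:44755877-44932215) had the smallest p of all and stood at 31.7, 30.1, 27.2 and 31.6 CPM against 61.1, 71.8, 75.8 and 69.4 CPM (log2 fold change 1.20 ± 0.0868 SE, adjusted p = 0.0021 in edgeR). Rora stood at 66.2, 61.6, 66.4 and 75.6 CPM against 118, 115, 119 and 118 CPM, with 2-number libraries that were nearly equal (log2 fold change 0.80, SE 0.0654). On the lower side, Chgb, a granin of secretory vesicles (-0.45), the semaphorin Sema7a (-0.60), the amino acid transporter Slc7a5 (-0.58) and the glycolytic enzymes Eno2 (-0.52) and Pgam1 (-0.44) were among the 12.

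Gene structure moved with the result, as described by measures chosen in part after the data were seen. By exonic length the share called higher was 3.77% in the shortest quartile of annotated genes and 12.7% in the longest, and the share called lower was 4.52% and 2.02%. By GC content it was 12.1% higher and 1.11% lower in the quartile with least GC and 4.69% and 5.80% in the quartile with most. Across genes, which are not independent replicates, Spearman's rho of the log2 fold change was 0.25 with exonic length, -0.21 with GC content and 0.29 with the genomic span. Among protein-coding genes alone rho was 0.18, -0.21 and 0.21. By annotated type, 91 of 400 lincRNA genes and 67 of 296 processed transcripts were higher, and 8 and 4 were lower. Processed pseudogenes, whose counts can come from their parent genes, were lower in 111 and higher in 3 of 1983. The part of length, GC content and RNA quality in the results was not tested, and no measure of RNA quality is in the sources used here.

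**Figure D5:**
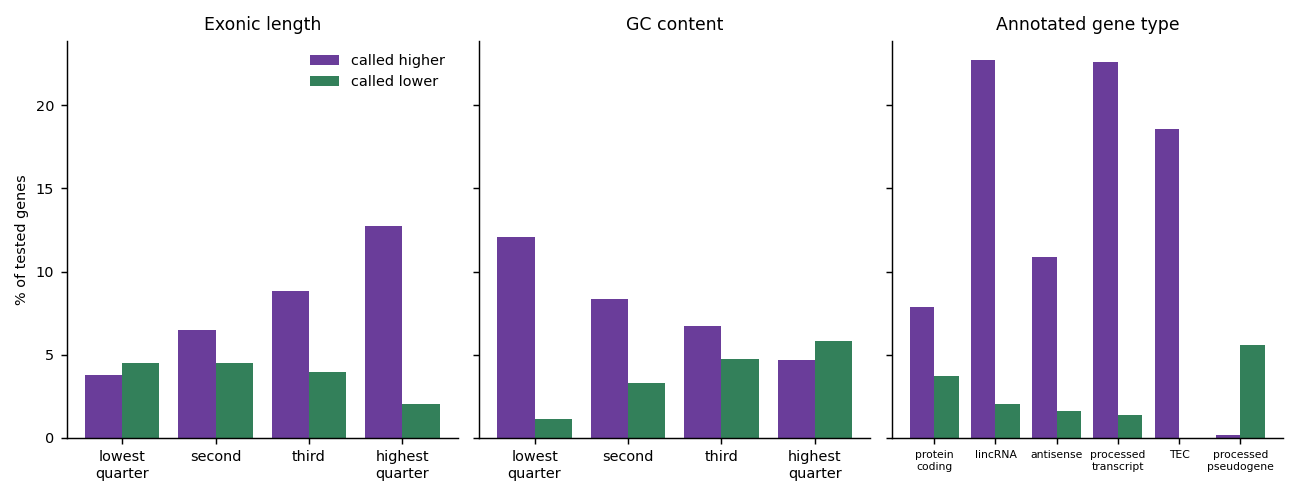
Percent of tested genes called higher (purple) and lower (green) in 2-number libraries, by quartile of exonic length, by quartile of exonic GC content and by annotated gene type (TEC is the annotation's class of provisional genes). The share called higher rises from 3.77% to 12.7% with length and falls from 12.1% to 4.69% with GC content.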

How the data were processed

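The deposited values are the authors' read counts per gene symbol, 1 file per library. FastQC, STAR, HTSeq and the build mm10 are named in the submitters' processing notes. Which annotation, counting options, strand setting and use of the unique molecular identifiers applied was not given in the sources used here. Per the labels' protocols, total RNA was extracted with TRIzol and a silica column and libraries came from a total-RNA kit with such identifiers. Positions come from GENCODE M21 (GRCm38), which held 45236 of 47517 symbols. Of these symbols, 4090 were left out (2503 with 0 in some library and at least 10 counts in all others, 1655 X- or Y-linked). After edgeR's filterByExpr (minimum count 10), 19519 genes were tested with edgeR 4.0.16 (TMM scaling, robust quasi-likelihood test, R 4.3.3, Benjamini-Hochberg over all genes), genotype as covariate. The scripts were tested on simulated data. DESeq2 1.42.0 and limma-voom (limma 3.58.1) were alternatives, with other scalings, filters, covariates and leave-outs. CPM are counts per 1000000 of the TMM library size. No 2 libraries were alike within counting noise.

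Members and lists were chosen with earlier results of these data known. Genes were named by a rule: the 12 smallest p-values in each direction without overlap (mean of at least 1 CPM, established symbols), the 4 smallest of each nuclear, splicing, mitochondrial or axonal list, the 1 smallest of each other list, and a short set chosen for their role. Further called members were named after their values were seen. A few genes are not reported here.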

Additional observations from a re-analysis of the deposited data

Results flagged for a closer look

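Among 366 groups of 4 libraries (each named gene and share in each title form), 12 held a library whose gap to the nearest of the others exceeded 0.829 of the group's range, Dixon's 95% critical value. Chance gives about 1 in 20 such groups. In the 1-number libraries these were low CPM of Dync1h1 in Mut21 (442), of Mdh2 and Snrpc in Mut39 (238 and 33.8) and of Polg2 in WT38 (3.57), and high CPM of mt-Nd1 in Mut39 (8477). In the 2-number libraries all 7 were high. WT22-23 held 5 of them, Cox4i1 (289.8), Dctn1 (181), Lipe (15.6), Mfn2 (80.1) and Nup50 (45.4), and for Cox4i1, Dctn1, Mfn2 and Nup50, which were called lower by title form, the other 2-number libraries were thus further from the 1-number libraries than WT22-23 was. The others were Dync1i1 in WT31-33 (70.2) and Malat1 in Mut25-26 (501).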

How the results depend on the processing

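Every one of the called genes tested kept its sign under every alternative, but the counts moved. Within either genotype 0 genes, and 0 of each group of lists, passed in edgeR (2877 genes at an unadjusted p under 0.05 in wild-type, 3169 in mutant). Neighbouring title numbers (WT19 with Mut21, and so on) entered as a random replicate block, since a fixed one would absorb title form. With this block (consensus correlation 0.158) in limma-voom 1038 genes were higher, 322 lower and 17 axonal genes lower, and no other group of lists moved by over 1.5 times. With the Y-linked share as a covariate 567 genes were higher and 92 lower, with 31 nuclear and 16 splicing genes higher and 9 mitochondrial and 5 axonal genes lower. With the haemoglobin share as a covariate 1362 genes and 58 axonal genes were lower. Both covariates, and leaving out pseudogenes (2290 called), were chosen after seeing the data. DESeq2 called 49 axonal genes lower, and library totals alone gave 365 lower genes and 32 lower mitochondrial genes. Without 1 library, 443 to 1406 genes were higher and 75 to 683 lower, 38 to 60 nuclear and 12 to 30 splicing genes were higher, and 8 to 47 mitochondrial and 7 to 35 axonal genes were lower. Scaling shifted log2 fold changes slightly. With library totals alone in place of trimmed-mean scaling, mt-Nd1 went from 0.0432 to 0.0888 and Comp from 0.209 to 0.254.

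Of the named genes' values without 1 library 1123 kept direction and call, 286 lost the call, 10 gained it and 5 changed sign. Under the other settings the counts were 2954, 360, 42 and 6. The sign changed for Comp within wild-type (-0.011), Krt15 with the Y-linked share (0.41), and mt-Nd1 within mutant (-0.067) and without WT31-33 (-0.011, highest 0.13 without another library). Prph changed sign without genotype in the model (-0.089), within wild-type (-0.67), with the haemoglobin share (-0.22) and without WT38, Mut21, WT22-23 or Mut25-26 (-0.26, -0.42, -0.089 and -1.11, highest 1.64 without another library). The cause was not tested. With 2 libraries in each group of genotype and title form, small differences between the genotypes are not detectable at this number of libraries.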

Other observations

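Among sensory cell markers, 3 of 25 tested hair cell genes (12%) were higher in 2-number libraries, near the 8.02% of all tested genes, and 0 lower by edgeR (9 and 2 at an unadjusted p under 0.05, 6 and 1 by DESeq2), and 18 had log2 fold changes above 0 (median 0.13). Ikzf2, a transcription factor of outer hair cells, stood at 6.79, 5.45, 5.16 and 5.96 CPM in WT19, WT38, Mut21 and Mut39 and 9.41, 9.91, 9.997 and 8.31 CPM in WT22-23, WT31-33, Mut25-26 and Mut34-35 (log2 fold change 0.69 ± 0.12 SE, adjusted p = 0.0124 in edgeR). The groups did not overlap. Ush1c, the hair bundle scaffold harmonin, stood at 24.8, 32.1, 24.1 and 25.9 CPM against 39.8, 60.9, 50.9 and 33.7 CPM (0.79), and the tip link gene Pcdh15 was higher by 0.43. The outer hair cell motor gene Slc26a5 (-0.37, edgeR adjusted p = 0.424) and the motor myosin Myo7a (0.04, adjusted p = 0.803) were not called. Among strial genes the melanocyte enzyme Dct (-0.46) and the potassium channel subunit Kcne1 (-0.41) were lower, and Kcnq1 was higher (0.36), but Kcnq1ot1, itself higher, lies across it on the other strand and their reads cannot be told apart. Kcne1 stood at 86.7, 89.8, 70.3 and 66.8 CPM against 55.2, 75.4, 47.05 and 58.02 CPM and overlapped, with WT31-33 above both 1-number mutants, whereas Kcnq1, at 59.2, 60.1, 43.7 and 52.4 CPM against 66.3, 77.1, 64.98 and 65.99 CPM, did not overlap.

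Of 14 endothelial genes the fenestral diaphragm gene Plvap (-0.54) and the tight junction gene Cldn5 (-0.49) were lower and 12 had negative log2 fold changes. Plvap stood at 37.2, 35.6, 31.5 and 36.7 CPM against 23.003, 25.9, 21.3 and 26.8 CPM, without overlap. The ciliary gene Ccdc39, which overlaps Ttc14 on the opposite strand, stood at 13.5, 12.7, 12.3 and 17.2 CPM against 29.01, 36.6, 40.7 and 30.3 CPM (log2 fold change 1.30 ± 0.14 SE, adjusted p = 0.00288 in edgeR), and was the only called gene of 11 for ciliated cells. The bone regulator Runx2 (0.55), the B cell factor Ebf1 (0.48) and the clock gene Per3 (0.62) were the only genes called higher in their lists. These were 1 of 16 tested genes for osteoblasts, 1 of 15 for B cells and 1 of 17 for the clock. Such shares (6.25, 6.67 and 5.88%) were below the 8.02% of all tested genes. The constitutive chaperone Hspa8 (-0.35), the glycolytic enzyme Ldha (-0.28) and the surrogate light chain gene Vpreb1 of B cell precursors (-0.68) were lower. In the fits without 1 library, Ccdc39 and Plvap were called in all 8, Ikzf2 in 7, Ebf1 in 6, Dct in 5, Runx2 and Per3 in 3 and Hspa8 in 1. Osteoclast genes had a median log2 fold change of -0.85 within wild-type and 0.04 within mutant libraries, and that difference was not tested.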
